A study of Mus musculus with 6 samples.

Results

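Expression of 10 core pluripotency and epiblast-associated genes was followed through 2 states of mouse embryonic stem cells and 3 treatments. The genes were Pou5f1, Sall4, Utf1, Dppa2, Dppa4, Dppa3, Tdgf1, Gdf3, L1td1 and Lin28a, and each was taken from every array probe whose annotated gene symbol is exactly that name. They are 10 of the 22180 genes that could be named from a probe with a single symbol. Sall4 was measured by 2 probes, averaged on the log2 scale, and each of the other genes by 1.

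Each state and treatment was measured once, on an Affymetrix array of the type Mouse Gene 2.0 ST that reads total RNA, which makes 6 arrays. The first state was EB3, an established line of mouse embryonic stem cells (mESC), kept in the serum-free medium N2B27 with LIF and BMP4. The second was epiblast-like cells (EpiLC), obtained from EB3 over 2 days on serum-coated dishes in N2B27 to which 12 ng/ml bFGF and 20 ng/ml Activin A had been added. Each state was left untreated, given 3 µM CHIR99021 (CHIR) for 24 hours, or given 3 µM CHIR99021 and 1 µM PD0325901 (PD) for 24 hours. CHIR inhibits the kinase GSK3, which stabilises beta-catenin and so activates Wnt target genes, and PD blocks MEK, which phosphorylates and switches on ERK1/2. No cells received PD without CHIR, all cells are of 1 line, and whether the 24 hours fell within or after the 2 days of induction is not given in the labels. State and culture medium cannot be told apart in this design. The labels give untreated cells no vehicle or matched time, so treatment and time in culture cannot be told apart either. EB3 is known to carry a drug resistance gene inserted at the Pou5f1 locus, and whether cells were selected with the drug is not given in the sources used here.

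Pou5f1 (also called Oct4) and Sall4 are transcription factors at the centre of the network that keeps cells of the epiblast pluripotent, the ability to form all tissues of the embryo. Utf1, Dppa2, Dppa4 and Dppa3 are chromatin-associated proteins, Gdf3 is a ligand related to Nodal and Tdgf1 (Cripto) is the cell surface co-receptor through which Nodal and Gdf3 signal, and L1td1 and Lin28a bind RNA. Such genes are commonly used to say that a culture is pluripotent, whether it resembles the epiblast before implantation, as mESC do, or shortly after, as EpiLC do.

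The stretches of 250 bases before the annotated start of 3 of the genes are shown because Utf1 and Tdgf1 had the largest differences of the set and Pou5f1 encodes its best known factor. They are RefSeq sequences of the build GRCm38.p6, written 5′ to 3′ on the strand of the gene, and capitals mark the GC box GGGCGG or its reverse complement, a motif bound by Sp factors. Utf1 lies at chr7:139943606-139943855 on the plus strand, Tdgf1 at chr9:110946159-110946408 on the minus strand and Pou5f1 at chr17:35505782-35506031 on the plus strand.
Utf1: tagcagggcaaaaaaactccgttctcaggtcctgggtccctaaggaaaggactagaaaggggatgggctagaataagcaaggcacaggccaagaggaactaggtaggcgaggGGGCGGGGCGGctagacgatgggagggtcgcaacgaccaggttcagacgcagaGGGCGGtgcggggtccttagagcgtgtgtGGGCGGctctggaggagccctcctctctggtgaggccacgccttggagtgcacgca
Tdgf1: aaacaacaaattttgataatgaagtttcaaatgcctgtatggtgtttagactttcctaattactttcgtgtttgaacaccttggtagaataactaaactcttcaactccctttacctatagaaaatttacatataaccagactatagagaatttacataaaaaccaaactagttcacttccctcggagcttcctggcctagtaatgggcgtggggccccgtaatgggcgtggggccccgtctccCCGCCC
Pou5f1: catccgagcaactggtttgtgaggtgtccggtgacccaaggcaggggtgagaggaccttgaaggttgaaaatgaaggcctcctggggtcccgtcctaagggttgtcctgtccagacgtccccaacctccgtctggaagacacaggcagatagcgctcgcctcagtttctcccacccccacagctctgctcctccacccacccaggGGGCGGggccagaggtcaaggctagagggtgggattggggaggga
The Utf1 stretch holds 4 GC boxes and 14 CpG, more CpG than 70.4% of 27025 promoter stretches of the same length. Tdgf1 has 1 GC box and 7 CpG (53.5% of promoters have fewer), and Pou5f1 has 1 GC box and 8 CpG (56.6% have fewer). Of all these promoter stretches 32.9% hold at least 1 GC box on either strand. A promoter was found for 5 of the 10 genes, the other 2 being those of L1td1 with 11 CpG and Lin28a with 7 CpG, neither with a GC box. The octamer ATGCAAAT, the sequence that Pou5f1 protein binds, was in 0 of these 5 and in 1.61% of all promoters, searched on both strands. The core CTTTGA of the sites of TCF, the partners of beta-catenin, was in 1 of the 5, that of Lin28a, and in 14.0% of all. A match of letters is a description and not a binding site, and its absence from 250 bases says nothing of binding elsewhere.

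Values are normalised linear intensities, with a lowest possible value of 16, and each array's median lay between 60.55 and 65.17. Differences are on the log2 scale, where -1 is a 2-fold lower and -2 a 4-fold lower intensity. With 1 array per group there are no replicates. An array compared with an array gives a size without error or p. A second kind of comparison used a linear model of state plus treatment over the 6 arrays in limma, in which the spread is the departure from additive effects (2 residual degrees of freedom). Its p-values, adjusted over all 22180 genes, measure only that departure between these samples and not the spread between cultures. The difference between the responses of mESC and EpiLC is the residual itself and was therefore not tested. Levels are compared between arrays for a gene and not between genes, since probes differ in brightness.

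**Figure D1:**
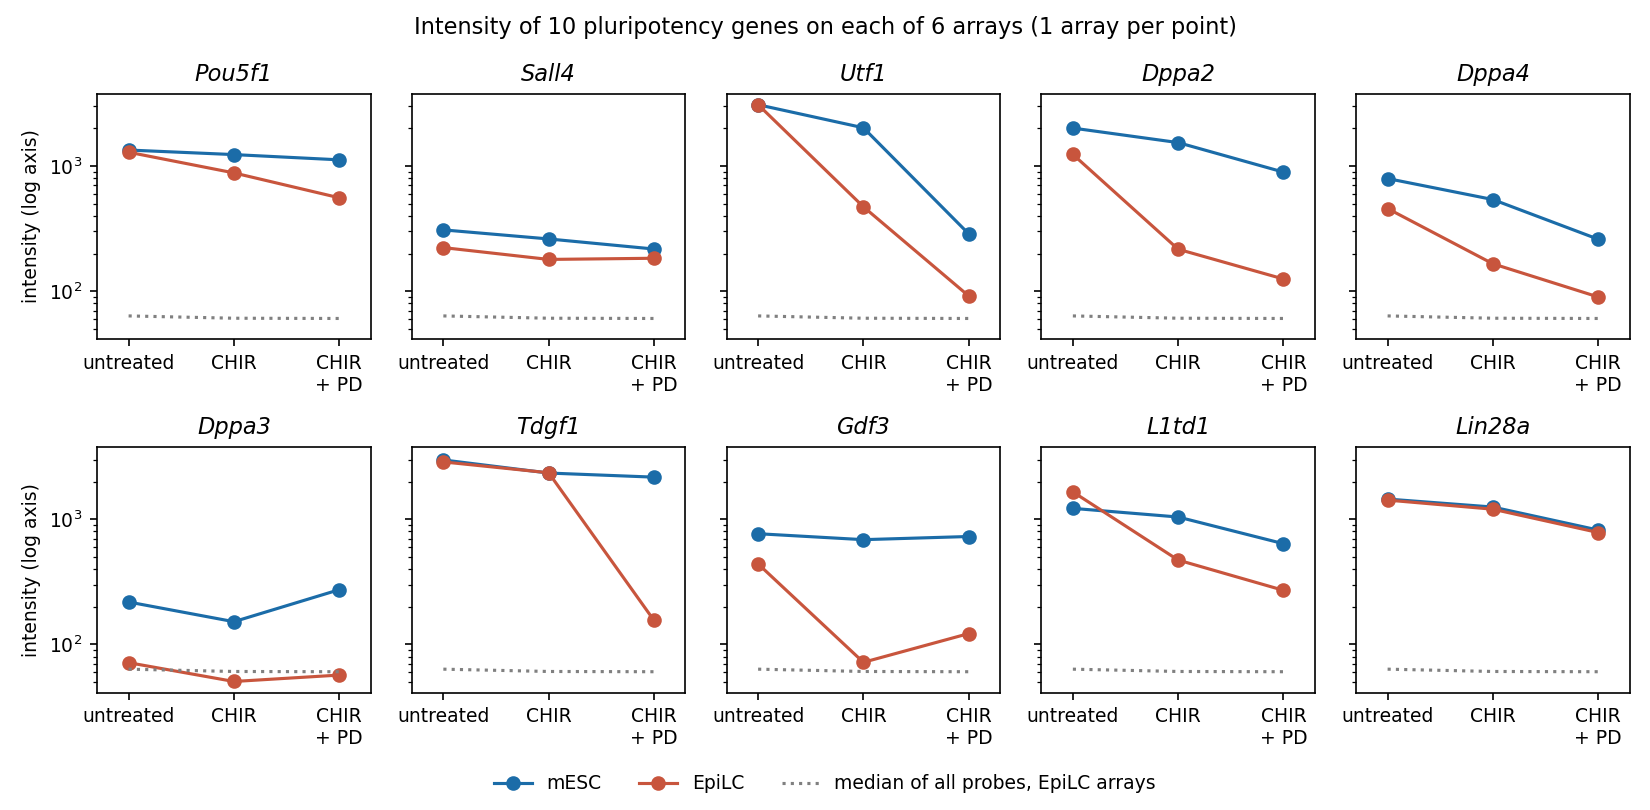
Intensity (log scale) of each of the 10 genes on the 6 arrays, 1 point per array, with mESC in blue and EpiLC in red over the 3 treatments and the median of all probes on the EpiLC arrays dotted. Utf1 ran from 3091.5 in untreated EpiLC to 91.66 in EpiLC with CHIR and PD, whereas the lines of Lin28a lay on each other, from 1450.6 and 1423.0 untreated to 820.2 and 783.8 with both inhibitors.

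Pou5f1 stayed at a high intensity in mESC under every treatment and was lower in treated EpiLC. Its intensity was 1342.0 in untreated mESC, 1234.3 with CHIR and 1120.9 with CHIR and PD, and 1289.5, 881.4 and 557.8 in the corresponding EpiLC. The untreated states were nearly equal (difference -0.06), and the lowest array was EpiLC with CHIR and PD, 1.21 below untreated EpiLC on the log2 scale (a difference of -1.21). In mESC the same pair of arrays differed by -0.26. The 4 highest arrays, those of mESC and of untreated EpiLC, followed each other by gaps under the residual spread of 0.34, and the states overlapped. Over the 3 treatments EpiLC differed from mESC by -0.52 (SE 0.19, limma adjusted p = 0.173), and over both states CHIR with PD differed from untreated by -0.73 (SE 0.23, limma adjusted p = 0.269). In this and all later results on bulk RNA, fewer cells expressing a gene and less RNA per cell cannot be told apart.

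Sall4 is a zinc finger factor that works with Pou5f1, and its 2 probes differed in brightness. As the mean of both probes it had the narrowest range of the 10 genes (0.78 log2 units over the 6 arrays). Averaged over both, its intensity was 308.9, 261.5 and 217.3 in untreated, CHIR and CHIR with PD mESC, and 223.0, 179.4 and 183.3 in EpiLC. The brighter probe gave 2155, 1714 and 1523 in mESC and 1372, 1107 and 985 in EpiLC. Its range was wider than that of Lin28a (1450.6 to 783.8), so the ranking of Sall4 depends on the dim probe. The brighter probe was lower in EpiLC in each pair, by nearly equal differences of -0.65, -0.63 and -0.63, and lower in every step of treatment. The dimmer probe lay between 29.1 and 44.3, below every array's median, and was 0.14 higher in EpiLC than in mESC under CHIR and PD. With the mean of the probes the state difference was -0.42 (SE 0.11, limma adjusted p = 0.0833), and with the brighter probe alone -0.64 (limma adjusted p = 0.0196), so the call depends on the handling of the dim probe. It also passed with both probes and a constant of 64 in place of 16 (-0.35, limma adjusted p = 0.0371).

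Utf1, a chromatin-bound factor of pluripotent cells and a textbook target of Pou5f1 and Sox2, had the widest range of the 10 genes. Its intensity was 3088.7 in untreated mESC, 2021.4 with CHIR and 287.4 with CHIR and PD. In EpiLC it was 3091.5, 472.6 and 91.66. The untreated arrays of both states were 0.001 log2 units apart, and each inhibitor step was followed by a lower value in each state. CHIR alone came with a small difference in mESC (-0.61) and a large one in EpiLC (-2.71, 6.54-fold), whereas adding PD came with large differences in both (-2.81 and -2.37, 7.03-fold and 5.16-fold). Both inhibitors together left Utf1 10.75-fold below untreated in mESC and 33.7-fold below in EpiLC. Over both states the fitted difference for CHIR with PD was -4.25 (SE 0.48, limma adjusted p = 0.0887), which missed the threshold of 0.05, and the state difference of -1.25 (SE 0.39, limma adjusted p = 0.122) missed it as well.

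Dppa2 and Dppa4 encode partner proteins that bind CpG-rich promoters and keep developmental genes open to later activation, and their genes lie side by side. Dppa2 had intensities of 2010.1, 1539.1 and 894.3 in untreated, CHIR and CHIR with PD mESC, and 1238.7, 216.4 and 125.2 in EpiLC. The 2 treated EpiLC arrays stood below the other 4, separated by the widest gap in the order (2.05 log2 units). Dppa4 had 794.3, 539.8 and 260.2 in mESC and 457.2, 165.6 and 89.95 in EpiLC. For both genes every treated array was below the untreated array of its state, and every EpiLC array below the mESC array of the same treatment. CHIR in EpiLC gave -2.52 for Dppa2 and -1.46 for Dppa4, against -0.38 and -0.56 in mESC. Adding PD gave -0.79 and -0.88 in EpiLC and -0.78 and -1.05 in mESC. Over the 3 treatments Dppa2 fell by 2.12 in EpiLC (SE 0.43, limma adjusted p = 0.0413). Dppa4 fell by 1.345 (SE 0.19, limma adjusted p = 0.0161). The Dppa2 call was lost without the CHIR arrays (adjusted p = 0.0893) or without the CHIR with PD arrays (0.105), and the Dppa4 call was kept in both.

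Dppa3 (Stella), which protects the oocyte and early embryo from changes in DNA methylation and marks cells of the preimplantation type and germ cells, separated the states. Its intensity was 218.3, 152.0 and 273.7 in untreated, CHIR and CHIR with PD mESC and 71.53, 50.59 and 56.92 in EpiLC. All 3 EpiLC arrays were below all 3 mESC arrays, and those with CHIR or with CHIR and PD were below the median of their own array (60.82 and 60.55). EpiLC were 3.05-fold lower untreated, 3.00-fold lower with CHIR and 4.81-fold lower with both inhibitors. Dppa3 fell by 1.82 over the 3 treatments (SE 0.16, limma adjusted p = 0.005). It also had the largest upward difference of the 10 genes in any pair of arrays, 0.85 in mESC when PD was added to CHIR, and in EpiLC that step gave 0.17. Levels this close to the lowest intensity depend on the constant in the values, and with 64 in place of 16 the untreated state difference was -1.16 and not -1.61.

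Tdgf1 kept a high intensity on 5 of the 6 arrays. It was 2979.1, 2341.0 and 2171.3 in untreated, CHIR and CHIR with PD mESC, and 2873.0 and 2353.6 in untreated and CHIR-treated EpiLC. In EpiLC with CHIR and PD it was 155.9. That array stood 3.80 log2 units below the next, whereas the 5 others followed each other by gaps of at most 0.29. Adding PD to CHIR gave -3.92 in EpiLC (15.1-fold lower) and -0.11 in mESC, and CHIR alone gave -0.29 and -0.35. In the additive model this difference in response became the largest residual spread of the 10 genes, 1.54. The fitted state difference of -1.28 (SE 0.75, limma adjusted p = 0.374) and the fitted difference for added PD of -2.01 (SE 0.92, limma adjusted p = 0.844) average over these unlike responses.

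Gdf3, unlike Tdgf1, was already low in EpiLC with CHIR alone. Its intensity was 766.7, 687.3 and 728.4 in untreated, CHIR and CHIR with PD mESC, with treated arrays within -0.16 of untreated. In EpiLC it was 440.0 untreated, 71.99 with CHIR and 122.1 with CHIR and PD. All EpiLC arrays were below all mESC arrays. CHIR was followed by a 6.11-fold lower intensity in EpiLC (-2.61) and a difference of -0.16 in mESC, and under CHIR the states stood 9.55-fold apart. Added PD came with a value 0.76 higher in EpiLC and 0.08 higher in mESC, both under the residual spread of 0.896. Over the 3 treatments Gdf3 fell by 2.21 in EpiLC (SE 0.44, limma adjusted p = 0.0399). The call was lost without the CHIR arrays (adjusted p = 0.0628) and without the CHIR with PD arrays (0.103).

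**Figure D2:**
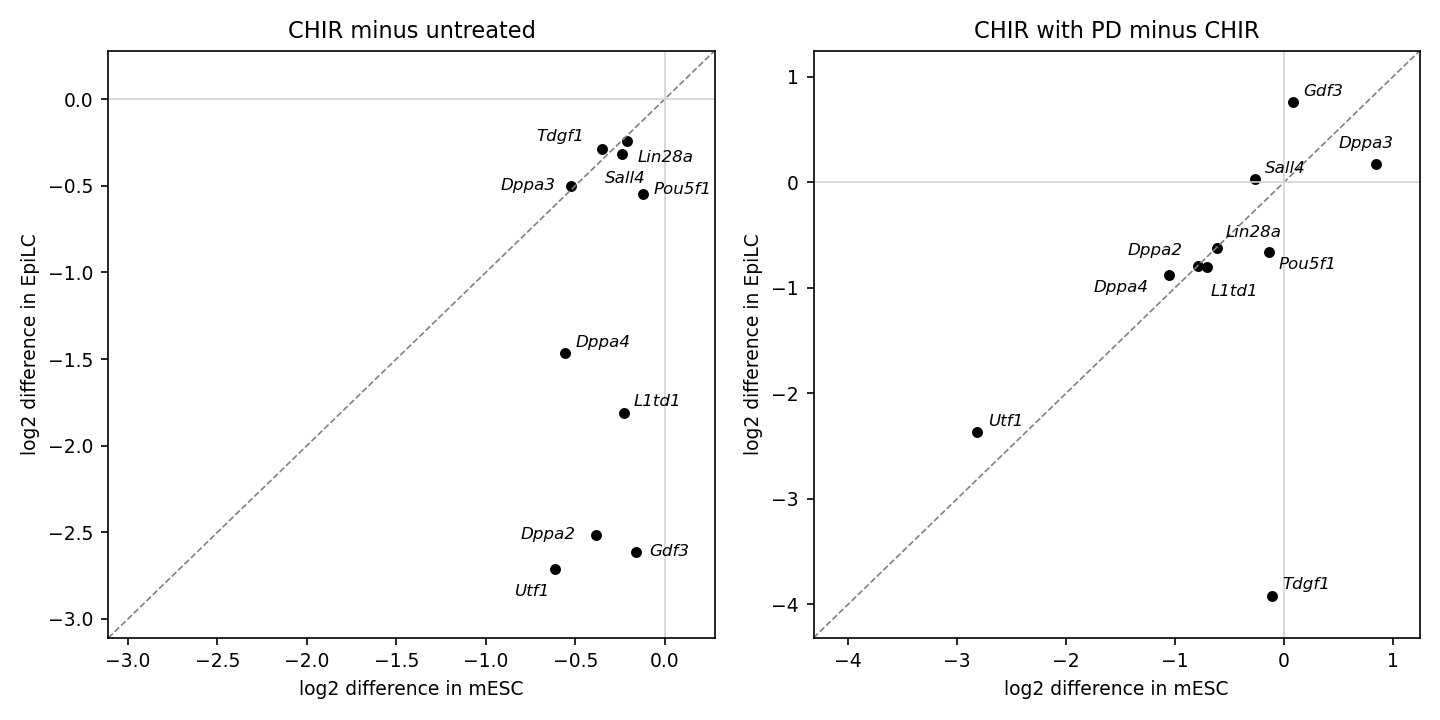
Log2 difference of each of the 10 genes in mESC (horizontal axis) and in EpiLC (vertical axis), for CHIR minus untreated on the left and CHIR with PD minus CHIR on the right, 1 array against 1 array, with equal responses on the dashed line. In the left panel Utf1, Gdf3, Dppa2, L1td1 and Dppa4 lie far below the line, and in the right panel Tdgf1 lies far below it at -0.11 in mESC and -3.92 in EpiLC.

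L1td1, an RNA-binding protein derived from a LINE-1 element and linked to Lin28a in pluripotent cells, ran highest and lowest in EpiLC. Its intensity was 1222.5, 1042.6 and 638.3 in untreated, CHIR and CHIR with PD mESC, and 1655.9, 472.2 and 270.7 in EpiLC. EpiLC thus held both the highest array and the 2 lowest, although untreated EpiLC stood above untreated mESC by less than the residual spread of 0.665. CHIR gave -0.23 in mESC and -1.81 in EpiLC (3.51-fold lower), and added PD gave -0.71 and -0.80. The state difference was 0.44 untreated, -1.14 with CHIR and -1.24 with CHIR and PD. The fit over the 3 treatments averaged these to -0.65 (SE 0.34, limma adjusted p = 0.319).

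Lin28a, which blocks the maturation of the microRNA let-7, had almost the same values in both states. Its intensity was 1450.6, 1252.3 and 820.2 in untreated, CHIR and CHIR with PD mESC and 1423.0, 1203.7 and 783.8 in EpiLC. In both states the order of treatments was the same, with the arrays that had received PD lowest. The state differences were -0.03, -0.06 and -0.07, CHIR gave -0.21 in mESC and -0.24 in EpiLC, and added PD gave -0.61 and -0.62, or 1.53-fold and 1.54-fold lower. Lin28a thus had the smallest residual spread of the 10 genes, 0.014, which rests on 2 degrees of freedom. The moderated fit gave -0.05 for state (SE 0.10, limma adjusted p = 0.805), -0.61 for added PD (SE 0.12, limma adjusted p = 0.605) and -0.84 for CHIR with PD (SE 0.12, limma adjusted p = 0.115).

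**Figure D3:**
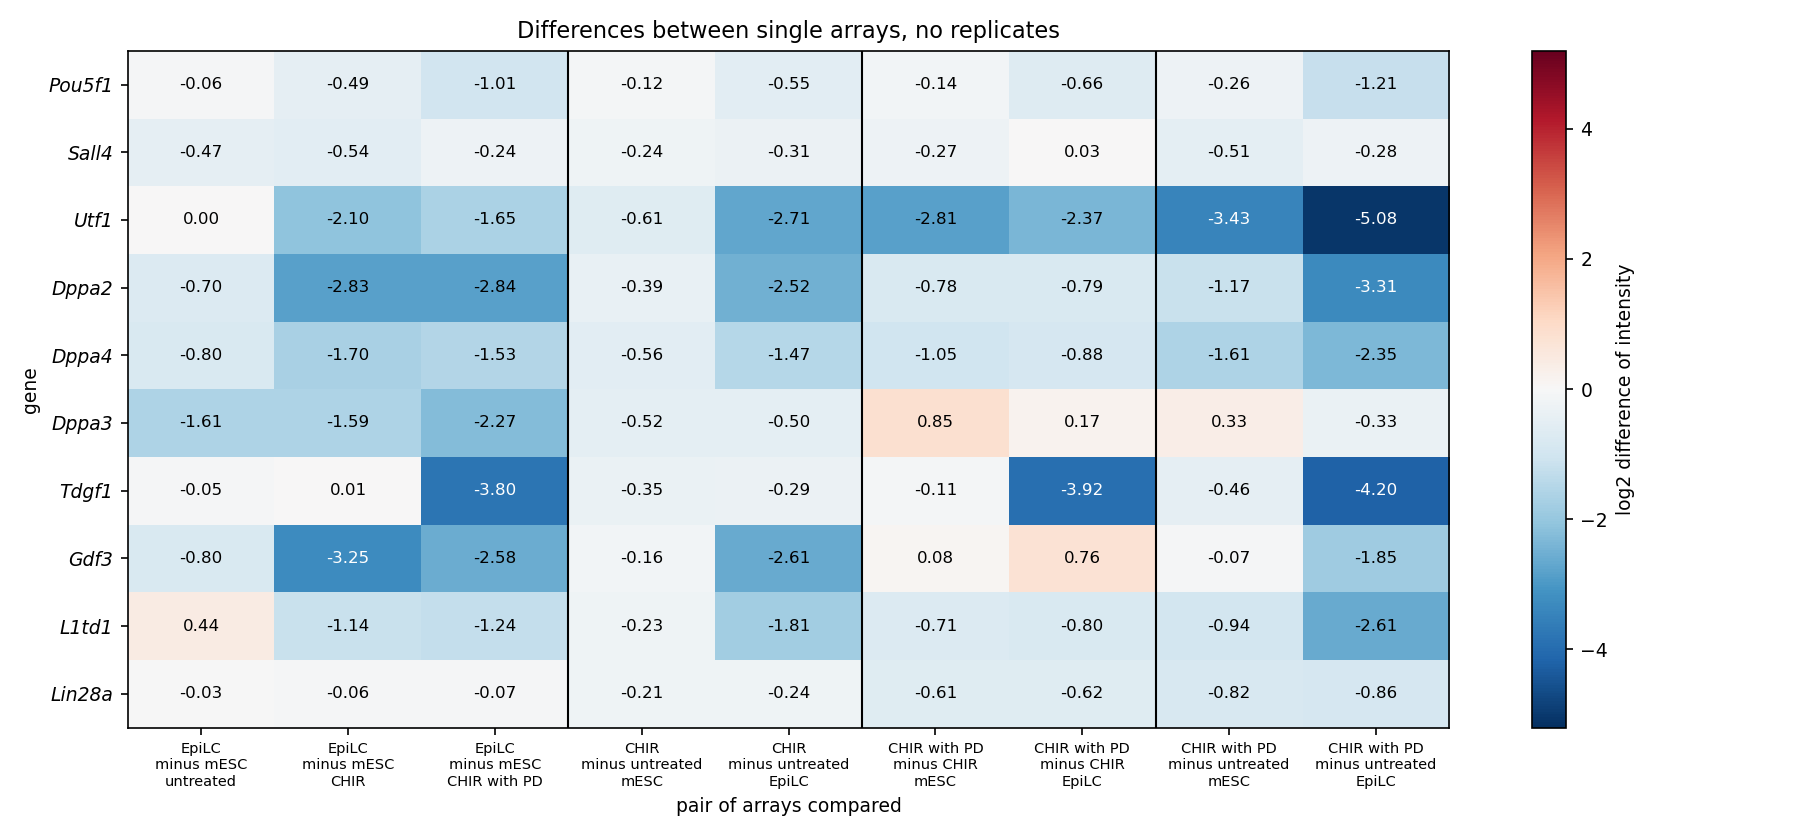
Log2 difference of each of the 10 genes in the 9 pairs of arrays, blue where lower and red where higher. The darkest cells are those of Utf1 (-5.08) and Tdgf1 (-4.20) in EpiLC with CHIR and PD against untreated, and under CHIR minus untreated 5 genes lie below -1 in EpiLC and 0 in mESC.

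Set side by side, the genes differed little between untreated states and more once inhibitors were present. In untreated cells 1 of 10 genes, Dppa3, was at least 2-fold lower in EpiLC (2.3% of all genes were), with a median of the 10 differences of -0.26 against 0.00 over all genes. Under CHIR 6 of 10 were at least 2-fold lower in EpiLC (2.63% of all genes), namely Utf1, Dppa2, Dppa4, Dppa3, Gdf3 and L1td1, with a median of -1.36 against -0.02. Under CHIR and PD 8 of 10 were (3.11% of all genes), all but Sall4 and Lin28a, with a median of -1.59 against -0.03. Pou5f1 lay at the limit (-1.007), and 7 of 10 passed it with quantile normalization or a constant of 64. None of the 10 genes was at least 2-fold higher in any of the 9 pairs of arrays, in which 0.185% to 3.29% of all genes were.

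The CHIR array lay below the untreated array for all 10 genes in each state, by amounts that differed in size. In mESC 0 of 10 were at least 2-fold lower (0.153% of all genes were), with a median of -0.29 against -0.002 over all genes. In EpiLC 5 of 10 were (0.929% of all genes), Utf1, Gdf3, Dppa2, L1td1 and Dppa4 in order of size, with a median of -1.01 against -0.03. Pou5f1, Sall4, Dppa3, Tdgf1 and Lin28a lay between -0.55 and -0.24 in EpiLC. Addition of PD gave 2 of 10 at least 2-fold lower in mESC, Utf1 and Dppa4 (0.523% of all genes), and 2 of 10 in EpiLC, Tdgf1 and Utf1 (1.01% of all genes). The medians for added PD were -0.44 in mESC and -0.725 in EpiLC, both against all-gene medians near 0 (-0.01 and -0.015). Against untreated cells, CHIR with PD had 3 of 10 at least 2-fold lower in mESC, Utf1, Dppa4 and Dppa2 (0.848% of all genes). In EpiLC 7 of 10 were (1.49% of all genes), all but Sall4, Dppa3 and Lin28a, with a median of -2.10 against -0.05. Comparisons of a state share its arrays, the untreated, CHIR and CHIR with PD array each entering several of them.

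**Figure D4:**
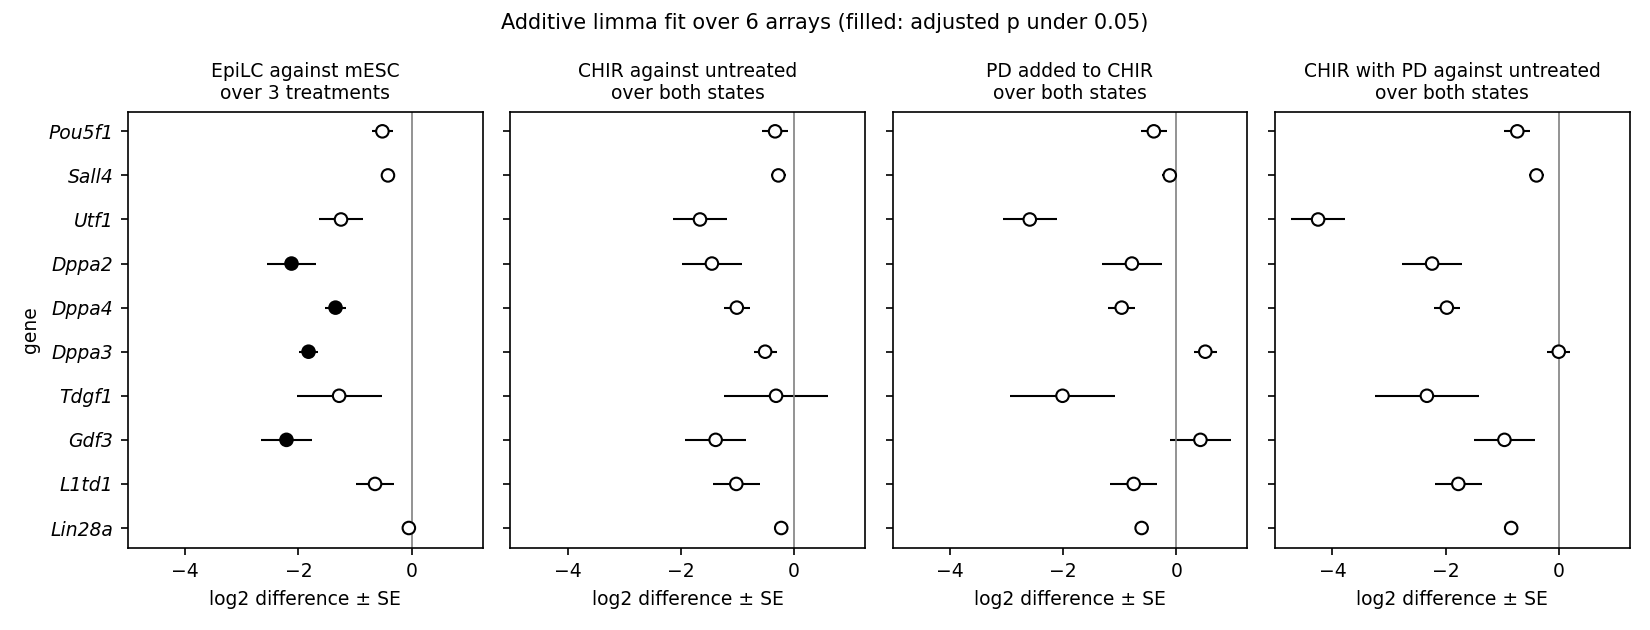
Fitted log2 differences of the 10 genes in the 4 comparisons of the additive model over 6 arrays, with bars of 1 SE, filled where the limma adjusted p is under 0.05. Only Dppa2, Dppa4, Dppa3 and Gdf3 in the comparison of EpiLC with mESC are filled, and the widest bars are those of Tdgf1.

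In the model over all arrays 4 of 10 genes fell in EpiLC against mESC, where 4.15% of all genes fell (920 of 22180), and the median of the 10 was -1.265 against -0.02. These were Dppa2, Dppa4, Dppa3 and Gdf3. The share over all genes includes dim ones. In either direction 1841 of all 22180 genes passed, against 1885 of 12685 with only genes of a mean log2 of at least 6. That is a larger share, with 4 of the 10 passing there too. The count was 2 without the CHIR arrays of both states, 2 without those with CHIR and PD, and 6 without the untreated arrays, where Utf1 (-1.87, limma adjusted p = 0.0148) and L1td1 (-1.19, limma adjusted p = 0.0205) passed as well. It was 2 with trend and robust moderation of the variances and 0, as for all genes, without moderation. For CHIR over both states 0 of 10 passed in limma, as did 0.0% of all genes, with 5 of the 10 and 1613 of all genes at an unadjusted p under 0.05. For PD added to CHIR 0 of 10 passed in limma, against 0.018% of all genes that fell, with 4 of the 10 and 1280 of all genes at an unadjusted p under 0.05. For CHIR with PD against untreated 0 of 10 passed, against 0.0271% that fell, with 8 of the 10 and 3173 of all genes at an unadjusted p under 0.05. With trend and robust moderation in limma 2 of the 10, Dppa4 and Lin28a, passed in this last comparison (adjusted p = 0.0473 for each), and 0 in the comparisons for CHIR and for added PD.

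The genes also differed in which others they followed over the 6 arrays. These Pearson correlations of log2 intensity rest on 6 arrays that share states and treatments, and they describe these arrays only. Dppa2 and Dppa4 had r = 0.969, Utf1 and L1td1 r = 0.955, Pou5f1 and Dppa2 r = 0.951, and Utf1 and Lin28a r = 0.932. Dppa3 was most like Gdf3 (r = 0.874) and had no linear relation to Lin28a (r = 0.006), the first separating the states and the second the treatments. Among 2432 other genes of sufficient level and range, the pattern of Dppa4 was most like that of Tfap4 (r = 0.997), and that of Gdf3 most like that of Zfp980 (r = 0.997), with the growth factor gene Fgf4 at r = 0.993. Sall4 was closest to Dnmt3l (r = 0.994), the cofactor of de novo DNA methylation, Dppa2 to Syce1 (r = 0.994), and L1td1 to Urb1 (r = 0.994). Pou5f1 was closest to Cbr3 (r = 0.988) and Srm (r = 0.987), and Utf1 to the RNA helicase gene Ddx21 (r = 0.984), which was also among the 3 closest to L1td1. Dppa3 was closest to Atg13 and Hand1 (r = 0.994 each) and Tdgf1 to P2ry2 (r = 0.972). Lin28a was closest to Zfp493 (r = 0.97), Dab1 and Etv5 (r = 0.968 each). Etv5, a factor induced by ERK signalling, had intensities of 558.6, 457.9 and 166.8 in mESC and 584.5, 353.2 and 81.57 in EpiLC, lowest on the 2 arrays with PD as Lin28a was.

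Of the genes beside them in the RefSeq order of protein-coding genes, some shared a profile and most did not. Dppa4, Dppa2 and Morc1 follow each other. Morc1, a gene of the male germ line, had 626.3, 578.9 and 428.6 in mESC and 54.96, 24.24 and 33.75 in EpiLC, all 3 EpiLC arrays far below the mESC arrays, which neither Dppa2 nor Dppa4 showed in untreated cells. Gdf3, Dppa3 and Nanog also lie in a row. Nanog, a central pluripotency factor, had 2118, 2180 and 2969.5 in mESC and 708.6, 496.3 and 2498.5 in EpiLC. Under CHIR it was lowest in EpiLC, as Gdf3 was, and adding PD gave 2.33 for Nanog, 0.76 for Gdf3 and 0.17 for Dppa3. Beside Tdgf1, Lrrc2 had 371.7, 314.3 and 306.8 in mESC and 57.05, 46.35 and 20.04 in EpiLC, so that it was low in EpiLC before PD was added, where Tdgf1 was high. Beside L1td1, Patj ran the other way, from 109.0 in untreated mESC to 371.8 in EpiLC with CHIR and PD. The neighbours of Utf1, Kndc1 and Spef1l, varied by 0.58 and 0.23 log2 units over the 6 arrays, and those of Pou5f1, H2-Q10 and Tcf19, by 0.35 and 0.63.

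**Figure D5:**
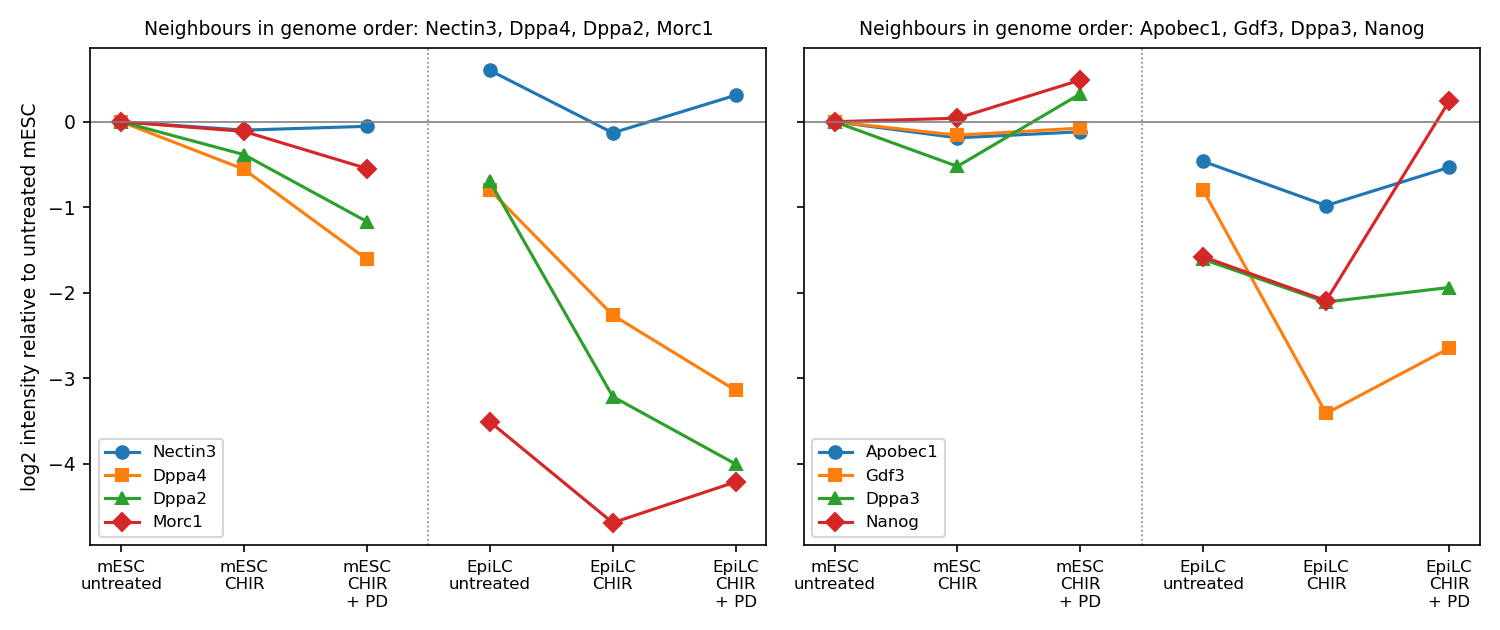
Log2 intensity relative to untreated mESC on the 6 arrays, 1 point per array, for genes that follow each other in genome order, with Nectin3, Dppa4, Dppa2 and Morc1 on the left (1 gene not measured lies between Nectin3 and Dppa4) and Apobec1, Gdf3, Dppa3 and Nanog on the right. In EpiLC with CHIR and PD, Nanog lies above 0 while Gdf3 and Dppa3 lie below -1.5, and Morc1 lies below -3 on all EpiLC arrays.

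Other genes of the same network were taken from lists chosen by function. Over all genes, dim ones included, 4.15% rose and 4.15% fell in EpiLC over the 3 treatments, with a median of -0.02. Each list's count is to be read beside these shares. Of 13 other pluripotency transcription factors measured, 4 fell and 0 rose over the 3 treatments (median -0.63, 4.15% of all genes fell). Sox2, the partner of Pou5f1, had 1514.3, 1459.6 and 1584.1 in mESC and 598.6, 106.1 and 302.4 in EpiLC, and it fell by 2.504 (SE 0.43, limma adjusted p = 0.026). On the single arrays Sox2 was lower after CHIR in EpiLC (-2.497), as Utf1 and Gdf3 were, but unlike Utf1 it was higher when PD was added (1.51). Nr5a2, a nuclear receptor, fell by 4.03 (SE 0.13, limma adjusted p = 0.000444), and Mybl2 fell by 1.92 (SE 0.14, limma adjusted p = 0.00295). Of 9 textbook targets of Pou5f1 and Sox2, 5 fell and 0 rose (median -1.32, 4.15% of all genes fell), Sox2 being counted in both lists, as are Nanog and Zscan10 among the genes that did not pass. Among the 5 were Fbxo15, which fell by 3.825 (SE 0.185, limma adjusted p = 0.00107), and Fgf4, which fell by 2.96 (SE 0.55, limma adjusted p = 0.032). When PD was added to CHIR in EpiLC 4 of these 9 were at least 2-fold higher and 0 lower, where 1.04% of all genes were higher and 1.01% lower.

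Tdgf1 and Gdf3 act in Nodal and Activin signalling. Of 17 other genes of that pathway measured, 3 rose, 1 fell and 13 did not pass in EpiLC over the 3 treatments (median 0.42, 4.15% of all genes rose), and Lefty2, a feedback inhibitor of Nodal, rose by 1.501 (SE 0.13, limma adjusted p = 0.00474). Lefty1, a second inhibitor of Nodal, had 79.2, 140.2 and 139.8 in mESC and 407.5, 240.4 and 3548 in EpiLC. Its highest array was thus the one on which Tdgf1 was lowest. Smad7, which dampens signalling inside the cell, had 277.3, 376.2 and 445.5 in mESC and 407.5, 69.29 and 151.3 in EpiLC. Its order of arrays was that of Gdf3 within EpiLC but not in mESC, where Smad7 was higher after each step. Cer1, a secreted Nodal inhibitor, had 49.81, 46.46 and 47.49 in mESC and 58.38, 460.0 and 51.87 in EpiLC.

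Of 8 genes around Lin28a, let-7 and RNA control, 1 rose and 1 fell in EpiLC (4.15% of all genes in each direction). The paralogue Lin28b had 102.9, 105.0 and 59.61 in mESC and 238.6, 200.7 and 215.7 in EpiLC, and it rose by 1.33 (SE 0.19, limma adjusted p = 0.0157), whereas Lin28a differed by -0.05. Trim71, itself silenced by let-7, fell by 0.79 (SE 0.14, limma adjusted p = 0.0275). Of 9 genes known to need Dppa2 and Dppa4 or to mark the 2-cell-like state, 2 fell and 0 rose (median -0.165, 4.15% of all genes fell). Peg10 fell by 1.48 (SE 0.21, limma adjusted p = 0.0161). Its intensity was higher after each inhibitor step in both states, where Dppa2 and Dppa4 had lower ones. It went from 1533.5 to 2103.1 and 2369.8 in mESC and from 397.9 to 686.9 and 1289.9 in EpiLC. Syce1 and Zscan4d of the same list were lower after each step in both states, as Dppa2 and Dppa4 were. Syce1 had 165.6, 141.5 and 128.6 in mESC and 135.2, 85.1 and 76.68 in EpiLC.

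Among 8 genes of DNA methylation, chosen for the role of Dppa3, 3 fell and 1 rose in EpiLC (median -0.37, 4.15% of all genes in each direction). Tet2 fell by 2.90 (SE 0.22, limma adjusted p = 0.00326) and, like Dppa3, was low on all 3 EpiLC arrays. Tet1 fell by 1.81 (SE 0.26, limma adjusted p = 0.0161), with its lowest values in treated EpiLC (909.2 untreated, 295.8 and 338.8 treated). Within EpiLC this was the order of Gdf3. In mESC Tet1 had 1852.4, 1536.0 and 1388.8, lowest with CHIR and PD, where Gdf3 was lowest with CHIR. Of 10 germ cell genes 4 fell and 0 rose (median -0.94, 4.15% of all genes fell), led by Tfap2c, which fell by 3.395 (SE 0.125, limma adjusted p = 0.000556), and of 11 chromatin factors of stem cells 4 fell and 0 rose (median -0.41, again beside 4.15%). Jarid2, a subunit of Polycomb complexes, was lower after each inhibitor step in both states, as were Pou5f1, Utf1, Dppa2, Dppa4, Tdgf1, L1td1 and Lin28a. Its intensity went from 2094.6 to 1510.5 and 978.3 in mESC and from 1184.5 to 902.3 and 598.4 in EpiLC. It fell by 0.76 in EpiLC (SE 0.10, limma adjusted p = 0.0126). Eed was also lower after each step and fell by 1.21 (SE 0.12, limma adjusted p = 0.00596). Kdm4c and Cbx7 of the same list were higher when PD was added in EpiLC (0.54 and 0.22). In the 3 treatment comparisons of the model 0 genes of these lists passed.

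The labelled states were checked by their markers. Of 8 markers of naive mESC, 8 were at least 2-fold lower in EpiLC in every treatment (2.3% to 3.11% of all genes were), and their summed intensity was 7780 to 10035 in mESC and 534 to 934 in EpiLC. Of 5 formative markers 5 exceeded their mESC level at least 2-fold without treatment, but 2 under CHIR and 1 under CHIR and PD. Of all genes 1.47%, 2.45% and 3.29% did. The sum of these markers was 8030, 2610 and 1179 in untreated, CHIR and CHIR with PD EpiLC, and 3015, 1521 and 1029 in mESC. It was thus lower with treatment in both states, and Dnmt3b (4847) was its largest part in untreated EpiLC. Pou5f1, Utf1, Dppa2, Dppa4, Tdgf1, L1td1 and Lin28a were lowest on the array of EpiLC with both inhibitors. Of the formative markers there, Fgf5 (39.38), Otx2 (58.98) and Dnmt3b (788.1) were below EpiLC with CHIR alone. Pou3f1 (145.5) and Sall2 (147.2) were slightly above it, by 0.24 and 0.20.

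Markers of other cell types moved with some of these results. The sum of 6 markers of primitive streak and mesoderm was 400 to 716 in mESC, and 889, 10669 and 558 in untreated, CHIR and CHIR with PD EpiLC. It was thus high on the CHIR-treated EpiLC array, where Utf1, Gdf3, Dppa2, L1td1 and Dppa4 were at least 2-fold below untreated EpiLC, and 5 of the 6 were at least 2-fold higher there than in CHIR-treated mESC (2.45% of all genes were). The sum of 6 primitive endoderm markers was highest on the same array (1294, against 404 to 458 on the other 5). Gata6 (619.2) and Pdgfra (223.5) had the largest part in that sum's rise, while Dab2 (63.26) was below its untreated EpiLC value (92.58). The sum of 5 neuroectoderm markers was 388 to 459 in mESC and 704, 847 and 1778 in EpiLC, the last on the array with low Tdgf1, through Sox1 at 885.2 and Nes at 688.0, while Pax6 (82.33) and Zic1 (61.06) were not above their untreated EpiLC values. The sum of 6 trophoblast markers was 1010 to 1207 in mESC and 284, 374 and 621 in EpiLC, the last again on the array with low Tdgf1. Within EpiLC Cdx2 (31.97, 143.1 and 260.5) and Krt7 (47.52, 41.53 and 157.5) had the largest part in that last value. Hand1 (61.32, 39.27 and 52.86) and Tfap2c (23.67, 29.13 and 28.42) were far below their mESC values on all EpiLC arrays. The sum of 9 fibroblast markers, which would mark feeder cells, was 1883 to 2109 in mESC and 2234, 3226 and 4763 in EpiLC. The last of these values is carried by Vim (3267.5), which many cell types express, and Acta2 (845.3). Col1a1 was also higher in EpiLC (197.5, 165.0 and 370.3) than in mESC (84.26, 80.8 and 100.9). It rose by 1.38 over the 3 treatments (SE 0.18, limma adjusted p = 0.0123). Thy1 was lowest on the array of EpiLC with both inhibitors (44.62), and Col1a2, Col3a1, Lum, Dcn and Postn lay between 18.52 and 75.55 on all arrays. The part of these cell types in the results on the 10 genes was not tested.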

How the data were processed

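The data are 6 arrays of total RNA from EB3 mESC and EpiLC, 1 per state and treatment. The deposited values are linear intensities per transcript cluster, which the authors analysed with GeneSpring GX 11.5, per the series' design text. How they were normalized, and on which genome build, is not given in the sources used here. In all there were 33793 probes, of which the platform annotation gives 23521 a single gene symbol, 1814 several symbols and 8458 none. The first kind alone was used, and a gene's value is the mean log2 intensity of its probes (22180 genes). An additive model of state and treatment was fitted in R 4.3.3 by lmFit and eBayes of limma 3.58.1. Adjustment was by Benjamini-Hochberg over all genes, 2-sided, threshold 0.05. The fit was tried on simulated additive data, which cannot show how it behaves where the responses of the states differ. Pairs of single arrays were counted at 2-fold, without a test. Precision is limited by the number of arrays.

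The 10 genes and the lists were chosen with earlier results of these data known. Named besides the 10 genes were up to 4 genes per list with the largest log2 range over the arrays, the 3 most correlated genes of each among genes with a mean log2 of at least 6 and a range of at least 1 (predicted, clone and small RNA symbols left out), and neighbours in genome order. Morc1, Lrrc2 and Patj were picked among the neighbours after their values were seen. Some further markers of cell types were also named after their values were seen. Promoters and gene order are from RefSeq, GRCm38.p6. Alternatives were trend and robust moderation, constants of 4 and 64 in place of the lowest intensity of 16, the brightest probe, a filter on dim genes, quantile normalization, leaving out each treatment, and, added after seeing the data, no moderation.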

Additional observations from a re-analysis of the deposited data

Results flagged for a closer look

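Values are set apart where paired differences had opposite signs and each passed a low fold limit, which small differences can also pass. The first is Dppa3, which with CHIR and PD was 0.33 higher than untreated in mESC and differed by -0.33 from untreated in EpiLC, on the log2 scale. Its fitted difference over both states was therefore close to 0 (-0.002, limma adjusted p = 1.0). The second is L1td1, for which EpiLC minus mESC was 0.44 untreated, -1.14 with CHIR and -1.24 with CHIR and PD. With 1 array per group neither difference between responses was tested. Both Dppa3 differences were only slightly larger in size than the residual spread of that gene. The untreated L1td1 difference was smaller than the residual spread of L1td1.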

How the results depend on the processing

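The count of 4 genes that fell in EpiLC went to 2 when the moderation used a trend and robust priors, to 2 when 4 replaced the constant 16, and to 0 without moderation of the variances, an alternative chosen after seeing the data that calls 0 of all 22180 genes. Leaving out each treatment gave 2 to 6. It was 3 with a constant of 64 (Dppa3, Dppa4 and Sall4), 5 with the brightest probe and 4 with quantile normalization or the filter on dim genes. Dppa3 and Dppa4 passed in all of these but the fit without moderation. Dppa2 and Gdf3 also missed the threshold with trend and robust moderation (limma adjusted p = 0.12 and 0.112), with a constant of 4 (0.0828 and 0.0822) and with a constant of 64 (0.0656 and 0.0598). The count for CHIR with PD against untreated went from 0 to 2 with trend and robust moderation. The count of genes at least 2-fold apart when PD was added in mESC went from 2 to 1 with a constant of 64. The difference of Dppa3 for CHIR with PD against untreated, -0.002, turned to 0.042 with a constant of 64 and 0.027 with quantile normalization. The causes of these shifts were not tested beyond the settings' own construction. The model already compares the states within each treatment, and with 1 array per group no further block could be fitted. Genes dimmer than their array's median, such as Dppa3 in treated EpiLC, have the least certain folds.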
